A study of Mus musculus with 20 samples.

Results

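Type IV collagen is the network-forming collagen of basement membranes, and the kidney was examined here for the mRNA of its 6 chains, the genes Col4a1, Col4a2, Col4a3, Col4a4, Col4a5 and Col4a6. The members were taken by symbol, and all 6 were found among the 47069 genes of the count table and passed the filter on low counts. RNA-seq was done on total RNA from the kidneys of 20 male mice of 15 weeks of age, F1 hybrids of 129SJ and C57Bl/6J. The WT group had 5 untreated mice. The other groups were Col4a3-/- mice carrying the whole-body null allele Col4a3 tm1Dec, with 6 Veh mice given PBS, 6 Anti-miR-21 mice given lademirsen at 50 mg/kg, and 3 ACEi mice given ramipril at 11 mg/L of drinking water along with PBS injections. Treatment began at 5 weeks of age. The deposited library table gives the ramipril dose in another unit, and the difference could not be resolved from the labels. Lademirsen is an oligonucleotide that inhibits the microRNA miR-21, and ramipril inhibits angiotensin-converting enzyme. The control for both treatments was also Col4a3-/-, and no treated WT group was among the samples used here. WT mice were littermates.

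The 6 chains assemble into triple-helical protomers of defined composition, written α1α1α2, α3α4α5 and α5α5α6. The first is made in basement membranes of nearly all tissues. The second is made by podocytes and replaces the first in the glomerular basement membrane as the glomerulus matures, and it also occurs in some tubular basement membranes, while the third occurs in Bowman's capsule and around distal tubules and collecting ducts. Loss of α3, α4 or α5 prevents assembly of the second network and causes Alport syndrome, in which α1α1α2 persists in the glomerular basement membrane.

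The estimated counts summed to between 28474301 and 29479629 per mouse, so the mice differed little in depth. Levels are given as CPM, counts per library size after TMM scaling, a factor that centres most genes between libraries, and a gene was called where edgeR's quasi-likelihood test gave a Benjamini-Hochberg adjusted p under 0.05 over the 17622 genes tested. Scaling by library totals alone shifted the all-gene median from 0.07 to 0.65 on the log2 scale in Veh against WT, and the share of called genes that were higher moved from 53.4% to 81.2%. Kidney markers were abundant in every mouse. The 6 proximal tubule markers summed to 12417 to 15921 CPM in WT, 1525 to 3936 CPM in Veh, 6879 to 11400 CPM in Anti-miR-21 and 7187 to 9311 CPM in ACEi, so that Veh was separate from every other group. In Veh against WT all 6 fell, and in each treated group against Veh all 6 rose, with medians of −2.17, 1.76 and 1.40 on the log2 scale, and their part in the changes of the chains was not tested. The extraction protocol in the labels mentions adipose tissue, and 6 mice, 3 Veh and 3 Anti-miR-21, had summed adipocyte markers above 10 CPM. Of these, Veh mice A1, A4 and A9 had 90.1, 120 and 90.5 CPM, and Anti-miR-21 mice A8, A12 and A15 had 12.8, 99.7 and 22.4 CPM. Leaving out those 6 mice kept the same 6 chains called in Veh against WT and in Anti-miR-21 against Veh. The labels name each sample on its own and do not state litters or cages, so p-values measure only the spread between these samples.

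The 6 genes lie in 3 head-to-head pairs, each pair on opposite strands of one chromosome of GRCm38 and transcribed away from a common region. Col4a1 (ENSMUSG00000031502, chromosome 8, 11198423 to 11312826, minus strand) and Col4a2 (ENSMUSG00000031503, chromosome 8, 11312805 to 11449287, plus strand) overlap by 22 bases at their annotated starts. Col4a4 (ENSMUSG00000067158, chromosome 1, 82448423 to 82586849, minus strand) and Col4a3 (ENSMUSG00000079465, chromosome 1, 82586921 to 82722059, plus strand) have 71 bases between their starts. Col4a6 (ENSMUSG00000031273, chromosome X, 141165403 to 141474076, minus strand) and Col4a5 (ENSMUSG00000031274, chromosome X, 141475385 to 141689234, plus strand) have 1308 bases between them. Exons of C430014B12Rik overlap those of Col4a3 on the opposite strand, and exons of Gm15419 those of Col4a2. Whether strand was used in counting is not given in the sources used here, so reads in these overlaps cannot be told apart by gene.

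The start regions of the pairs whose members moved together between mice are shown, each as 300 bases of GRCm38.p6 in the direction of the named gene, from RefSeq. The window of Col4a2 is chr8:11312555-11312854 on the plus strand and holds the annotated start of Col4a1. The window of Col4a4 is chr1:82586800-82587099 on the minus strand and holds the annotated start of Col4a3, for which only the name is given here. Capitals mark matches to GGGCGG or to CCAAT on either strand.
Col4a2: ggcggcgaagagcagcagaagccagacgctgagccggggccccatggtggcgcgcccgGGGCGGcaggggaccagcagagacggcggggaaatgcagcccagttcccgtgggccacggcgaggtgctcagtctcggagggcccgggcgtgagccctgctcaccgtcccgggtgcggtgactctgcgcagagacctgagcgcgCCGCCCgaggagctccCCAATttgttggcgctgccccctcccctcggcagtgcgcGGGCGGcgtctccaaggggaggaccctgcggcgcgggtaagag
Col4a4: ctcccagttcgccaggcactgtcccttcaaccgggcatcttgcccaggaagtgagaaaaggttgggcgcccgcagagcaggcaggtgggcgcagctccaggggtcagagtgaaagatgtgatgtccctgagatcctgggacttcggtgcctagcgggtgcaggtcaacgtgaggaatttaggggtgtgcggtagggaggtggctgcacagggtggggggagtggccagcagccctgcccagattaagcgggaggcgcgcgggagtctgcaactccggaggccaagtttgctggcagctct
The motifs were searched on both strands of the 5 windows present: GGGCGG of the GC box, CCAAT of the CCAAT box, TATAAA of the TATA box, and the Smad-binding letters CAGACA. The windows of Col4a1 and Col4a2 share bases, and so share matches. The Col4a2 window held 3 matches to GGGCGG and 1 to CCAAT, while the Col4a4 window held no match to any of the 4. GGGCGG occurred in 35.7% of the 32851 promoter windows of the same length in the table, CCAAT in 37.4%, TATAAA in 13.6% and CAGACA in 21%. The Col4a1 window held 1 GGGCGG and 1 CCAAT, the Col4a5 window 1 of each and the Col4a6 window 1 GGGCGG, and none of the 5 held TATAAA or CAGACA. The GC content was 73.7% for Col4a2, 74.0% for Col4a1 and 63.3% for Col4a4, against 52.7% for Col4a5, 48.3% for Col4a6 and a median of 52.7% over all windows.

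The target of lademirsen is shown because one treatment acts on it. The mature mmu-miR-21a-5p lies at chr11:86584120-86584141 on the minus strand of GRCm38.p6, and capitals mark its seed, bases 2 to 8.
mmu-miR-21a-5p: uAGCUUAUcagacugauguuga
The 7-base match to this seed, ATAAGCT, was searched in the 3′ untranslated region of the longest coding transcript of each gene. It occurred in none of the 6 chains, whose regions were between 971 and 4708 bases long, and in 7.1% of the 20962 genes with such a region.

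Col4a3 was measured first, since it is the disrupted gene. The 5 WT mice had 194, 208.3, 222, 222 and 238 CPM. The Veh mice ranged from 27.9 to 46.3 CPM with a median of 38.2 CPM. No Col4a3-/- mouse reached the lowest WT mouse, and the mean in Veh was 17.5% of that in WT. The log2 fold change was −2.52 (SE 0.14, edgeR quasi-likelihood adjusted p = 7.13e-12). A count per gene does not show which exons the remaining reads came from. In bulk tissue, fewer cells that express a gene and less RNA per cell cannot be told apart.

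In Veh mice, the other chains of the kidney moved in different directions. Col4a1 and Col4a2, the chains of α1α1α2, rose 3.55-fold and 3.8-fold, and Col4a6 rose 3.73-fold from a low level. Col4a4, the partner of Col4a3 in α3α4α5, fell to 49.9% of the WT mean although it was not the disrupted gene, while Col4a5, the third chain of that protomer, rose 1.33-fold. All 6 of 6 chains were called, 4 higher and 2 lower, where 73.0% of all genes tested were called. For 5 of the 6, no mouse of one group fell within the range of the other, as for 54.9% of genes. Among all genes tested, 39.0% were higher and 34.0% lower.

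**Figure D1:**
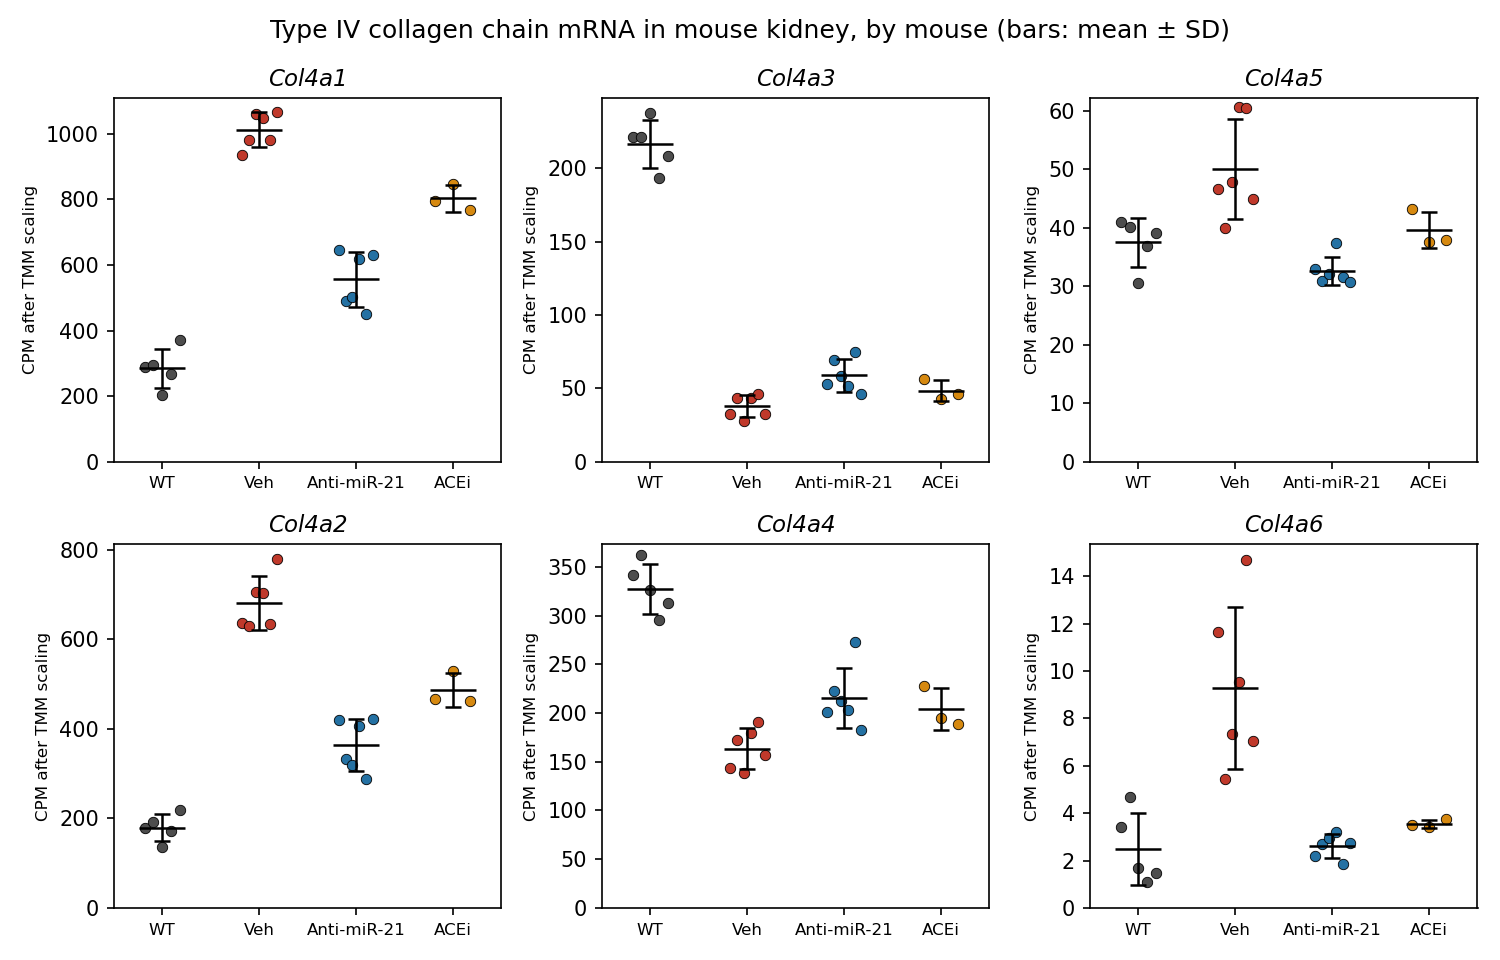
CPM after TMM scaling (vertical axes, each from 0) of each of the 6 chains in each of the 20 mice, by group; points are mice and bars are the mean ± SD. WT mice lie above all Col4a3-/- mice for Col4a3 and Col4a4 and below them all for Col4a1 and Col4a2, and Anti-miR-21 mice lie between WT and ACEi mice for Col4a1 and Col4a2.

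Col4a1, which encodes the α1 chain, had 203.6, 268, 289, 296 and 370 CPM in the WT mice. In Veh it ranged from 937 to 1066 CPM with a median of 1015 CPM. Its log2 fold change was 1.83 (SE 0.13, edgeR adjusted p = 1.02e-10). Each Veh mouse was above each WT mouse, and WT mouse A18 was the lowest.

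Col4a2, which encodes the α2 chain, had 135, 172, 179, 191 and 219.3 CPM in the WT mice. In Veh it ranged from 629 to 781 CPM with a median of 669.9 CPM. On the log2 scale the change was 1.93 (SE 0.12, edgeR adjusted p = 4.03e-11). The order of the WT mice was the same as for Col4a1, with A18 lowest and A6 highest.

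Col4a4, which encodes the α4 chain, had 296, 313, 326, 341 and 362 CPM in the WT mice. In Veh it ranged from 138 to 191 CPM with a median of 164.5 CPM. Its log2 fold change was −1.003 (SE 0.10, edgeR adjusted p = 1.78e-08). The highest Veh mouse, A4, had well under the CPM of the lowest WT mouse, A3. With library totals alone the log2 fold change was −0.42, still called.

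Col4a5, which encodes the α5 chain shared by α3α4α5 and α5α5α6, had 30.6, 36.8, 39.1, 40.1 and 41.1 CPM in the WT mice. In Veh it ranged from 39.9 to 60.7 CPM with a median of 47.3 CPM. On the log2 scale it differed by 0.42 (SE 0.10, edgeR adjusted p = 0.00101). The groups overlapped through Veh mouse A16, which was below WT mice A14 and A17. The size depended on the scaling, with a log2 fold change of 1.004 for library totals alone. Within flow cell FCH5Y3GBBXX alone, with 2 WT and 2 Veh mice, it was 0.51 and not called (edgeR adjusted p = 0.0935). There 8989 of 16993 genes were called.

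Col4a6, which encodes the α6 chain, was the least abundant, with 25 to 115 estimated counts in a WT mouse. The 5 WT mice had 1.11, 1.48, 1.68, 3.42 and 4.70 CPM. In Veh it ranged from 5.46 to 14.7 CPM with a median of 8.44 CPM. On the log2 scale the change was 1.90 (SE 0.31, edgeR adjusted p = 1.53e-05). The groups did not overlap, but both were widely spread. Within flow cell FCH5Y3GBBXX alone, with 2 WT and 2 Veh mice, the change was 1.23 (edgeR adjusted p = 0.0691).

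Markers of the cells that make these chains differed between the groups as well. The 9 podocyte markers, among them nephrin (Nphs1) of the slit diaphragm, summed to between 238 and 380 CPM in WT and between 454 and 533 CPM in Veh. Of the 9, 7 were higher in Veh, where 39.0% of all genes were higher and 34.0% lower, with a median log2 fold change of 0.84. None was lower by the edgeR test, and none was at 0 in any group. Nphs1 had a log2 fold change of 0.08 (adjusted p = 0.59). The lower Col4a3 and Col4a4 thus stood beside higher podocyte marker sums, and under the 3 other scalings 7 to 9 of the markers were higher and none lower. Library totals alone called 14307 of 17622 genes, 81.2% of them higher, upper-quartile scaling 12993, 59.8% higher, and median-of-ratios scaling 12891, 52.4% higher.

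For Col4a1 and Col4a2, other marker lists rose with the chains. The 6 fibroblast markers summed to between 85.6 and 202.8 CPM in WT and between 1373 and 1661 CPM in Veh, and 6 of 6 were higher. The 4 mesangial markers summed to between 72.3 and 121 CPM in WT and between 267 and 315 CPM in Veh, with 3 of 4 higher. Smooth muscle markers went from between 115 and 173 CPM to between 366 and 545 CPM, with 3 of 4 higher. The 7 endothelial markers overlapped, at 125 to 341 CPM in WT and 257 to 316 CPM in Veh, with 2 higher and 2 lower. The 6 macrophage markers summed to 140 to 154 CPM in WT and 817 to 998 CPM in Veh, with 6 of 6 higher, while all 5 markers of T cells rose, by a median of 3.65 on the log2 scale. These counts stand against 39.0% of all genes higher and 34.0% lower. No marker of these 6 lists was at 0 in all mice of a group. WT mouse A18, the lowest for Col4a1 and Col4a2, was also lowest for the fibroblast, mesangial, endothelial and podocyte sums. Markers of the distal nephron, where α5α5α6 occurs, were mostly lower in Veh. Of the distal convoluted tubule markers 1 of 4 was higher and 3 lower, of the collecting duct markers 4 of 5 were lower, and of the intercalated cell markers 4 of 4 were lower, with medians of −1.66, −0.57 and −1.51. With library totals alone, 1 collecting duct marker was higher and 1 lower, with a median of −0.0055. The part of these cell types in the change of the chains was not tested.

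Levels of different chains were compared only per length, on the deposited FPKM. In WT the order of mean FPKM was Col4a1 at 35.7 ± 8.26, Col4a2 at 23.1 ± 4.48, Col4a4 at 22.02 ± 2.38, Col4a3 at 20.8 ± 2.01, Col4a5 at 4.92 ± 0.64 and Col4a6 at 0.31 ± 0.20 (SD, n = 5). The first 4 overlapped with their neighbours in this order, whereas Col4a5 and Col4a6 stood apart below them. In Veh the order was Col4a1 at 191 ± 15.5, Col4a2 at 132 ± 15.2, Col4a4 at 13.2 ± 1.84, Col4a5 at 9.95 ± 1.89, Col4a3 at 5.46 ± 1.01 and Col4a6 at 1.75 ± 0.66 (SD, n = 6). There only Col4a4 and Col4a5 overlapped as neighbours, with Col4a4 the higher in 6 of 6 mice.

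The summed FPKM of the 6 chains was 107 ± 15.0 in WT (SD, n = 5) and 354 ± 30.6 in Veh (SD, n = 6). In WT, Col4a3 and Col4a4 made up 19.7% ± 3.31 and 20.8% ± 1.81 of that sum, against 33.1% ± 3.5 for Col4a1 and 21.5% ± 1.46 for Col4a2. In Veh, Col4a3 and Col4a4 made up 1.56% ± 0.34 and 3.77% ± 0.61, against 54.0% ± 0.76 for Col4a1 and 37.4% ± 1.47 for Col4a2. Col4a5 held 4.61% ± 0.29 in WT and 2.81% ± 0.47 in Veh, so its share was lower in Veh although its level was higher. In Anti-miR-21, Col4a3 and Col4a4 held 4.16% ± 1.24 and 9.32% ± 2.24, and in ACEi 2.51% ± 0.41 and 6.86% ± 0.85 (SD, n = 6 and n = 3). The share of Col4a4 was between 3.16% and 4.54% in Veh mice, 6.36% and 7.84% in ACEi mice, 6.83% and 13.2% in Anti-miR-21 mice and 17.8% and 22.5% in WT mice. FPKM are not rescaled between libraries, but a share within a mouse does not depend on that scaling. The shares and the order above do depend on the FPKM of Col4a4, which did not follow its counts alike in all mice. Veh mouse A1 had 5184 counts and 10.4 FPKM of Col4a4, and Veh mouse A19 had 5022 counts and 12.4 FPKM.

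**Figure D2:**
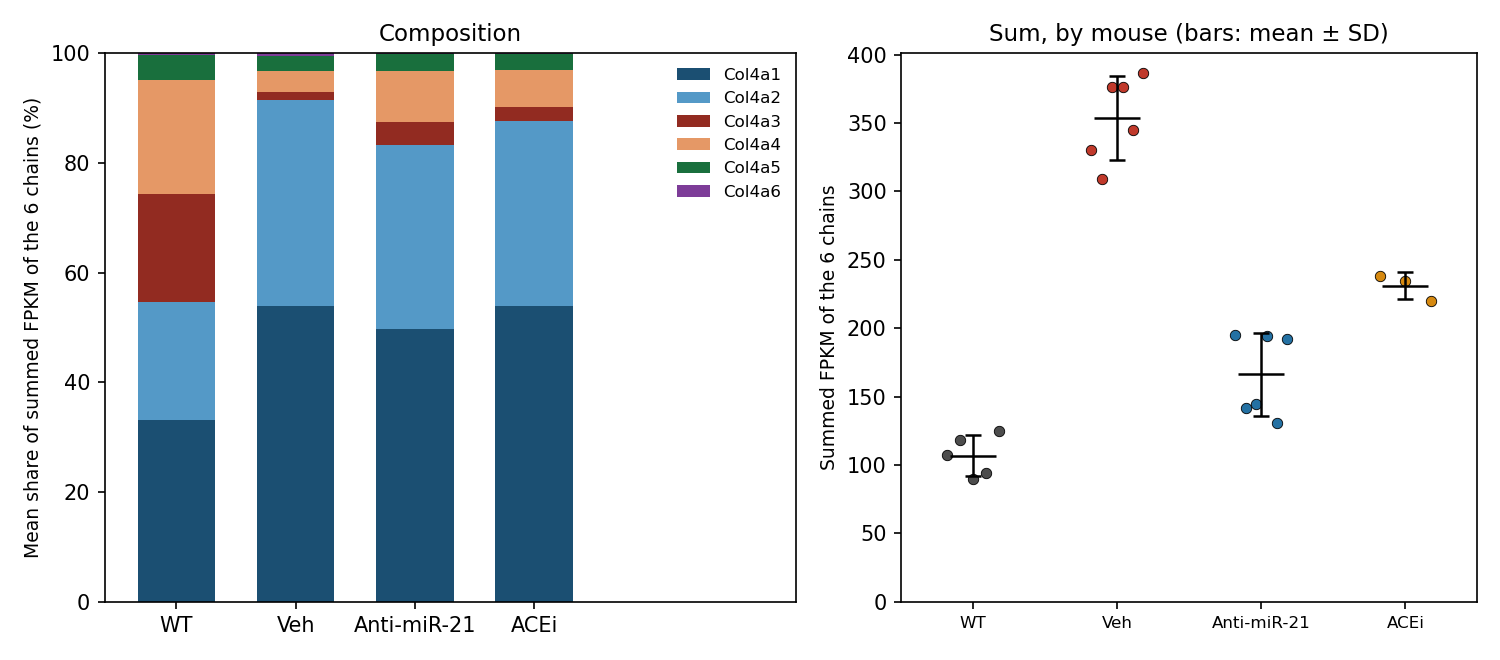
Left, mean share of each chain in the summed FPKM of the 6 chains (%) by group; right, that sum in each mouse, with bars for the mean ± SD. The mean share of Col4a3 was 19.7% in WT and 1.56% in Veh, and the mean sum was 107 in WT, 354 in Veh, 166 in Anti-miR-21 and 231 in ACEi.

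Ratios of chains within a mouse cancel the scaling between libraries and were compared as descriptions, with no test. The log2 ratio of Col4a2 to Col4a1 counts was −0.66 ± 0.06 in WT (SD, n = 5), −0.57 ± 0.07 in Veh (SD, n = 6), −0.61 ± 0.04 in Anti-miR-21 (SD, n = 6) and −0.73 ± 0.04 in ACEi (SD, n = 3). Between Veh and WT the means differed by 0.09, while the chains rose 3.55-fold and 3.8-fold. The largest difference was −0.15, in ACEi against Veh, where Col4a1 and Col4a2 were at 79.4% and 71.3% of the Veh mean CPM. The ACEi mice, at −0.77 to −0.68, did not overlap the Veh or Anti-miR-21 mice.

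The log2 ratio of Col4a4 to Col4a3 was 0.60 ± 0.09 in WT (SD, n = 5), 2.13 ± 0.13 in Veh (SD, n = 6), 1.89 ± 0.11 in Anti-miR-21 (SD, n = 6) and 2.08 ± 0.10 in ACEi (SD, n = 3). The 3 groups of Col4a3-/- mice lay between 1.69 and 2.31 and the WT mice between 0.46 and 0.71. From FPKM the difference of Veh from WT was 1.21 in place of 1.53. The FPKM annotation marks the entries of Col4a3 and Col4a4 as confounded, a term the sources used here do not explain.

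The log2 ratio of Col4a6 to Col4a5 was −4.13 ± 0.80 in WT (SD, n = 5), −2.49 ± 0.37 in Veh (SD, n = 6), −3.67 ± 0.27 in Anti-miR-21 (SD, n = 6) and −3.48 ± 0.14 in ACEi (SD, n = 3). The Veh mice lay above every other mouse. The ratio in Veh differed from WT by 1.63, and that in Anti-miR-21 and ACEi differed from Veh by −1.17 and −0.98.

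The log2 ratio of Col4a5 to Col4a1 was −2.91 ± 0.19 in WT (SD, n = 5) and −4.35 ± 0.24 in Veh (SD, n = 6), and both treated groups stayed apart from WT, at −4.08 ± 0.20 in Anti-miR-21 (SD, n = 6) and −4.34 ± 0.15 in ACEi (SD, n = 3). Col4a4 was also set against the mean log2 CPM of the 9 podocyte markers. It stood 3.95 ± 0.28 above that mean in WT (SD, n = 5), 2.20 ± 0.24 in Veh (SD, n = 6), 2.47 ± 0.16 in Anti-miR-21 (SD, n = 6) and 2.47 ± 0.11 in ACEi (SD, n = 3). WT mice did not overlap any Col4a3-/- mouse, and the treated groups overlapped Veh.

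**Figure D3:**
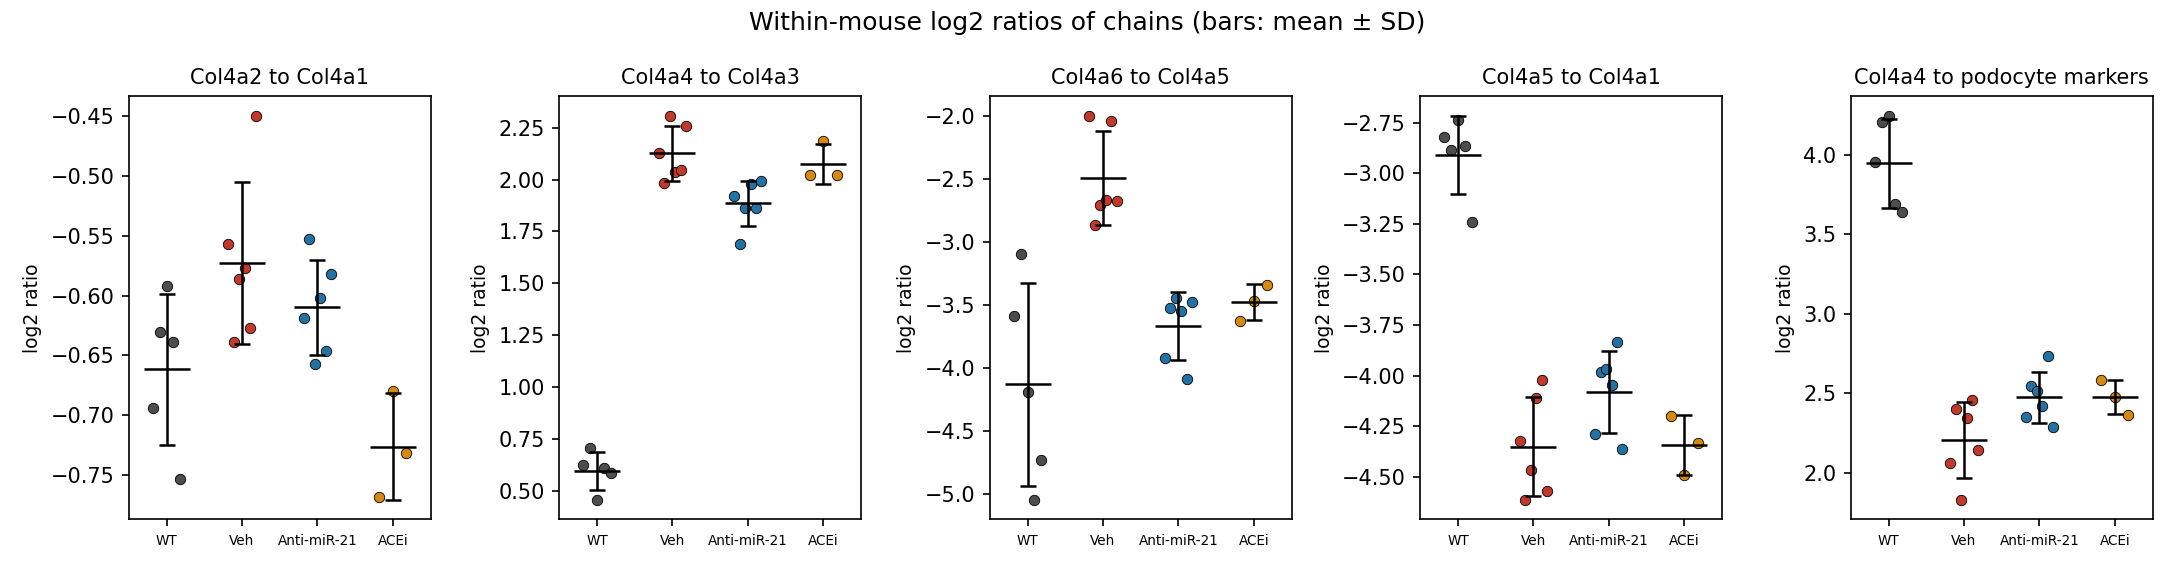
Within-mouse log2 ratios of counts (vertical axes, not from 0) for 4 pairs of chains and for Col4a4 against the mean of the podocyte markers, by group; points are mice and bars the mean ± SD. The Col4a4 to Col4a3 ratio separates WT, at 0.46 to 0.71, from all other mice, while the Col4a2 to Col4a1 ratio spans only −0.77 to −0.45 over all 20 mice.

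Anti-miR-21 treatment was compared with Veh among Col4a3-/- mice. Col4a1, Col4a2, Col4a5 and Col4a6 fell, to 54.9%, 53.5%, 65.1% and 28.1% of the Veh mean, and Col4a3 and Col4a4 rose 1.55-fold and 1.32-fold. All 6 of 6 chains were called, against 59.2% of all genes tested. Of all genes, 28.8% were higher and 30.5% lower. Ranges were separate for 4 of the 6 chains, against 36.4% of genes.

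Cell type markers moved between these groups as well. In Anti-miR-21 against Veh, 30.5% of all genes were lower and 28.8% higher. Of the markers, 5 of 6 fibroblast, 3 of 4 mesangial, 3 of 4 smooth muscle and 6 of 6 macrophage were lower. Their medians were −1.08, −0.65, −1.01 and −1.07 on the log2 scale. Of the 9 podocyte markers 5 were higher and 2 lower, with a median of 0.37, and with library totals alone 2 were higher and 4 lower. Their part in the changes of the chains was not tested.

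Col4a1 ranged from 450 to 645 CPM in Anti-miR-21 mice with a median of 560 CPM, below every Veh mouse. Its log2 fold change was −0.86 (SE 0.11, edgeR adjusted p = 2.64e-06). Col4a2 ranged from 287 to 421 CPM with a median of 370 CPM, and its log2 fold change was −0.90 (SE 0.11, adjusted p = 1.14e-06). Both chains split the 6 mice alike, with A2, A8 and A10 high and A12, A15 and A22 low. Sums of some marker lists split the same mice. In the first 3, fibroblast markers summed to 608 to 710 CPM against 348 to 450 CPM in the others, macrophage markers to 452 to 518 CPM against 341 to 363 CPM, and mesangial markers to 189 to 206.9 CPM against 148 to 172 CPM. Proximal tubule markers were lower in the first 3, at 6879 to 7757 CPM against 9086 to 11400 CPM. The part of these cells in the split was not tested.

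Col4a3 ranged from 45.9 to 74.9 CPM with a median of 55.7 CPM, a log2 fold change of 0.64 (SE 0.13, edgeR adjusted p = 3.02e-04). Its size depended on the processing. Over the 13 alternatives other than leaving out each mouse it ran from 0.25 to 0.78 and stayed called. Col4a4 ranged from 183 to 273 CPM with a median of 207.4 CPM, a log2 fold change of 0.40 (SE 0.10, adjusted p = 0.00131). Both overlapped Veh. The call for Col4a4 depended on the scaling, since the change was 0.05 with library totals alone (adjusted p = 0.607) and 0.17 on log2(FPKM + 1) by limma (adjusted p = 0.116). Mouse A22 was highest for both chains and lowest for Col4a1 and Col4a2.

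Col4a5 ranged from 30.7 to 37.3 CPM with a median of 31.9 CPM, below every Veh mouse, a log2 fold change of −0.62 (SE 0.10, edgeR adjusted p = 1.68e-05). Col4a6 ranged from 1.86 to 3.20 CPM with a median of 2.72 CPM, a log2 fold change of −1.83 (SE 0.29, adjusted p = 2.00e-05). The lowest Veh mouse, A16, had 5.46 CPM of Col4a6 and the highest Anti-miR-21 mouse, A2, had 3.20 CPM.

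ACEi treatment gave 4 of 6 chains called against Veh, where 40.1% of all genes were called. Col4a2, Col4a5 and Col4a6 fell, to 71.3%, 79.1% and 38.3% of the Veh mean, and Col4a4 rose 1.25-fold, where 19.1% of genes were lower and 21% higher. Ranges were separate for 3 chains, Col4a1, Col4a2 and Col4a6, and for 38.6% of genes. Col4a1 had a log2 fold change of −0.33 (95% interval −0.63 to −0.04, edgeR adjusted p = 0.067) and Col4a3 one of 0.36 (95% interval 0.03 to 0.68, adjusted p = 0.0752). These calls changed with the mice included. Without ACEi mouse A13 the called chains were Col4a2 and Col4a6, and edgeR called none within flow cell FCH5Y3GBBXX or without the 6 mice with more adipocyte marker. In the latter case the log2 fold changes were −0.46 for Col4a2 (adjusted p = 0.0592), 0.35 for Col4a4 (adjusted p = 0.0729), −0.29 for Col4a5 (adjusted p = 0.141) and −1.04 for Col4a6 (adjusted p = 0.0846). Within the flow cell they were −0.39, 0.29, −0.29 and −1.09 (adjusted p = 0.213, 0.175, 0.423 and 0.183). That flow cell holds 2 ACEi and 2 Veh mice, and 1539 of 16993 genes were called there. Leaving out the 6 mice removed Veh mice A1, A4 and A9, and 4326 of 17168 genes were then called. With all mice, 7074 of 17622 genes were called.

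Among cell type markers in ACEi against Veh, 2 of 6 fibroblast, 2 of 4 mesangial, 4 of 4 smooth muscle and 6 of 6 macrophage markers were lower, with medians of −0.89, −0.37, −0.81 and −0.95 on the log2 scale. In the same comparison, 19.1% of all genes were lower and 21% higher. The fibroblast sum was 691 to 790 CPM in ACEi, below every Veh mouse. With library totals alone 6 of 6 fibroblast markers were lower, where 9296 of 17622 genes were called and 20.5% of those were higher. Of the 9 podocyte markers 2 were higher and 1 lower, with a median of 0.07 that turned to −0.20 with library totals alone and to −0.0046 with upper-quartile scaling. Their part in the changes of the chains was not tested.

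In the 3 ACEi mice, Col4a1 had 767, 795 and 848 CPM and Col4a2 had 462, 467 and 530 CPM. Every ACEi mouse was below every Veh mouse for both. The log2 fold change of Col4a2 was −0.49 (SE 0.14, edgeR adjusted p = 0.00852). Col4a1, which did not pass the main test, passed with DESeq2 at −0.34 (adjusted p = 0.0351), and with library totals alone at −0.61 (adjusted p = 0.00659).

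Col4a3 had 42.8, 46.4 and 56.2 CPM in the ACEi mice. Col4a4 had 188, 195 and 228 CPM, a log2 fold change of 0.32 (SE 0.12, edgeR adjusted p = 0.0346), with ACEi mouse A11 highest for both. The lowest ACEi mouse, A23, was below Veh mouse A4, so the groups overlapped. The call for Col4a4 was lost without mouse A11 (0.23, adjusted p = 0.183) or A13 (0.36, adjusted p = 0.0569), and with library totals alone (0.05, adjusted p = 0.706). Col4a3 passed without Veh mouse A4 (0.45, adjusted p = 0.0282), A16 (0.43, adjusted p = 0.0364) or A20 (0.43, adjusted p = 0.0402).

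Col4a5 had 37.6, 38.0 and 43.3 CPM in the ACEi mice, a log2 fold change of −0.34 (SE 0.12, edgeR adjusted p = 0.0289), overlapping Veh through mouse A11. Col4a6 had 3.40, 3.51 and 3.75 CPM, all below Veh, a log2 fold change of −1.39 (SE 0.36, adjusted p = 0.00495). Leaving out Veh mouse A4 or A20, each at −0.25, or ACEi mouse A13 or A23, each at −0.30, ended the call for Col4a5.

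The treatments were also compared with each other. None of the 6 chains was called between Anti-miR-21 and ACEi by edgeR, where 0.584% of all genes were (0.221% lower and 0.363% higher), 3 had an unadjusted p under 0.05, and DESeq2 called 1. The largest difference was in Col4a1, at −0.53 (95% interval −0.82 to −0.24, edgeR adjusted p = 0.0772, DESeq2 adjusted p = 0.0118). Every Anti-miR-21 mouse was below every ACEi mouse in CPM after TMM scaling for Col4a1, Col4a2, Col4a5 and Col4a6, where 8.99% of genes did not overlap. Flow cell FCH5V5HBBXX held 5 Anti-miR-21 mice and 1 ACEi mouse, and FCH5Y3GBBXX held 1 and 2. Treatment and flow cell were thus partly aligned in this comparison. For Col4a5 and Col4a6 the gap was small, with Anti-miR-21 mouse A2 at 37.3 and 3.20 CPM and ACEi mouse A13 at 37.6 and 3.40 CPM. With library totals alone it was gone, with A2 at 38.7 and 3.32 CPM and A13 at 36.7 and 3.32 CPM. Col4a2 differed by −0.41 (95% interval −0.69 to −0.14, edgeR adjusted p = 0.152) and Col4a5 by −0.28 (95% interval −0.53 to −0.04, adjusted p = 0.276). The intervals of Col4a3, −0.06 to 0.61, of Col4a4, −0.16 to 0.33, and of Col4a6, −1.18 to 0.29, included 0.

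**Figure D4:**
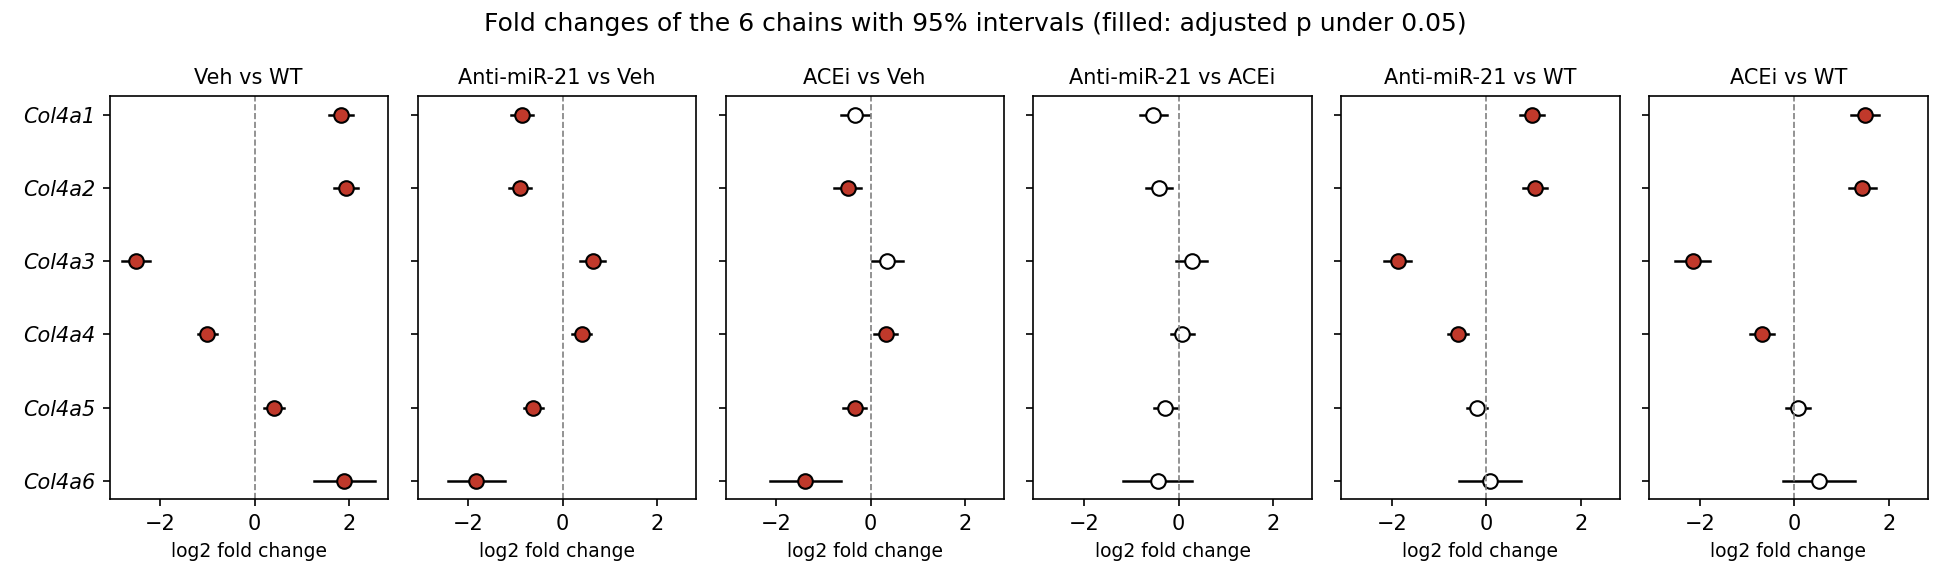
Log2 fold changes (horizontal axes) of the 6 chains in each of 6 comparisons by edgeR, with 95% intervals; filled points have an adjusted p under 0.05. All 6 chains were called in Veh against WT and in Anti-miR-21 against Veh, 4 in ACEi against Veh and none between the treatments.

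Against WT, each treated group kept 4 of 6 chains called. In Anti-miR-21, where 43.7% of genes were called (23.9% higher and 19.8% lower), Col4a1 and Col4a2 stayed 1.95-fold and 2.03-fold higher than in WT (edgeR log2 fold changes 0.96 and 1.02), and Col4a3 and Col4a4 stayed at 27.1% and 65.9% of WT. Col4a5 differed by −0.20 (95% interval −0.41 to 0.01, adjusted p = 0.113) and Col4a6 by 0.07 (95% interval −0.58 to 0.72, adjusted p = 0.876). In ACEi, where 47.7% of genes were called (25.2% higher and 22.5% lower), Col4a1 and Col4a2 stayed 2.82-fold and 2.71-fold higher, and Col4a3 and Col4a4 stayed at 22.4% and 62.2% of WT. Col4a5 differed by 0.08 (95% interval −0.18 to 0.33, adjusted p = 0.625) and Col4a6 by 0.52 (95% interval −0.25 to 1.28, adjusted p = 0.26). For the 4 called chains the ranges were separate from WT in both groups, as for 23.8% of genes in Anti-miR-21 and 46.1% in ACEi. Col4a5 in ACEi against WT passed with library totals alone, at 0.39 (adjusted p = 0.0309), and on log2(FPKM + 0.1) by limma, at 0.40 (adjusted p = 0.0415). The direction for Col4a5 in Anti-miR-21 turned with library totals alone, at 0.04, and that for Col4a6 without WT mouse A3, A6 or A18.

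Variation between mice of one group gave a further view of how the chains moved. After the group means were removed, Pearson's r of log2 CPM over the 20 mice was taken between each chain and 12569 protein-coding genes. It serves as a description, since genes measured in one mouse share its library, depth and tissue composition. For Col4a1 the first gene was Col4a2 and for Col4a2 the first was Col4a1, at 0.96. For Col4a3 the first was Col4a4 and for Col4a4 the first was Col4a3, at 0.91. The 3rd head-to-head pair was looser, with Col4a6 at rank 445 for Col4a5 and Col4a5 at rank 621 for Col4a6, at 0.55. Between the pairs, Col4a1 and Col4a2 had r of −0.49 and −0.59 with Col4a3, and of −0.35 and −0.44 with Col4a4.

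After its partner, Col4a1 was most like Mrc2, a receptor that takes up collagen, at 0.95, followed by Col1a2, a chain of type I collagen, at 0.94 and Eml4 at 0.94. Col4a2 was followed by Adamts2, which trims procollagens, at 0.92, Mrc2 at 0.92, Col1a1 at 0.91 and the membrane protease Mmp14 at 0.90. Col4a3 was followed by Afap1l1 at 0.86, Fam217a at 0.85, Slc22a7, an organic anion transporter, at 0.84 and Tc2n at 0.84. Col4a4 was followed by the same Afap1l1 at 0.88, then Mpped2 at 0.83, Chst7 at 0.81 and Mpped1 at 0.80. For Col4a5 the 5 nearest were Ptprm at 0.85, Gprasp1 at 0.84, Kank4 at 0.82, Bmpr1a at 0.82 and Cacna1g at 0.82. For Col4a6 they were Muc20 at 0.91, Atp10b at 0.91, Aldh1a3 at 0.90, Psca at 0.89 and Igfbp2 at 0.89.

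Genes that make and crosslink type IV collagen did not all rise with its α1 and α2 chains. Of 19 such genes, 11 were higher and 4 lower in Veh against WT, where 39.0% of all genes were higher and 34.0% lower, and their median log2 fold change was 0.35 against 0.07 for all genes. Serpinh1, the collagen chaperone, rose by 1.72 (SE 0.12, edgeR adjusted p = 1.67e-10). Pxdn, peroxidasin, which forms the sulfilimine bonds of the network, rose by 1.61 (SE 0.10, adjusted p = 4.02e-11), and Loxl2, a lysyl oxidase, rose by 3.28 (SE 0.23, adjusted p = 9.8e-11). The largest fall was in P3h2, a prolyl 3-hydroxylase, at −0.85 (SE 0.11, adjusted p = 6.45e-07). In Anti-miR-21 against Veh, where 28.8% of all genes were higher and 30.5% lower, 3 were higher and 10 lower with a median of −0.26. In ACEi against Veh, where 21% of all genes were higher and 19.1% lower, 3 were higher and 10 lower with a median of −0.19.

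All 10 of 10 genes in a list of receptors for collagens and other matrix proteins rose in Veh, against 39.0% of all genes, with a median of 1.16. The largest was Adgrg6, an adhesion receptor, at 2.66 (SE 0.26, edgeR adjusted p = 1.12e-08), and the smallest Itga10, an integrin chain, at 0.53 (SE 0.16, adjusted p = 0.00431). Itga1, the integrin α1 chain, rose by 0.78 (SE 0.09, adjusted p = 7.98e-08) and Ddr1, a receptor tyrosine kinase for collagen, by 0.61 (SE 0.08, adjusted p = 5.95e-07). In Anti-miR-21 against Veh all 10 fell, against 30.5% of all genes, with a median of −0.69. In ACEi against Veh 4 fell, against 19.1% of all genes, with a median of −0.43. With library totals alone 10 did, where 9296 of 17622 genes were called and 20.5% of those were higher. Of the receptors named, Itga1 had −0.11 (edgeR adjusted p = 0.406) and Ddr1 −0.23 (adjusted p = 0.0562) in ACEi against Veh.

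Of 21 other basement membrane genes, 16 rose and 3 fell in Veh, against 39.0% and 34.0% of all genes, with a median of 1.35. Col15a1, a basement membrane zone collagen, rose by 3.70 (SE 0.27, edgeR adjusted p = 1.96e-10) and Nid1, nidogen, which links laminin to type IV collagen, by 1.83 (SE 0.24, adjusted p = 6.85e-07). Lama5 and Lamb2, chains of the laminin of the mature glomerular basement membrane, rose by 1.08 and 0.96 (adjusted p = 5.93e-09 and 6.42e-08). Lama1, a laminin chain, fell by 0.59 on the log2 scale (adjusted p = 1.26e-05), and Tinag, a tubular basement membrane antigen, fell by 1.28 (adjusted p = 2.13e-09). In Anti-miR-21 against Veh 2 were higher and 15 lower, against 28.8% and 30.5% of all genes, with a median of −0.79. In ACEi against Veh 3 were higher and 13 lower, against 21% and 19.1%, with a median of −0.45. Nid1 had −0.60 (adjusted p = 0.0207) in Anti-miR-21 against Veh and −0.04 (adjusted p = 0.912) in ACEi against Veh.

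Of 10 matrix metalloproteinases and their inhibitors, 9 rose in Veh and 1 fell, against 39.0% and 34.0% of all genes, with a median of 4.34. Mmp7, matrilysin, had 2139 counts over the 6 Veh mice and 2 over the 5 WT mice, and Mmp10 had 293 and 1, so that no fold change is given for them, and the median was the same with both genes set at a floor of 3 counts over the group. Timp3, a matrix-bound inhibitor, fell by 1.38 on the log2 scale (SE 0.10, edgeR adjusted p = 2.69e-10), from 2097 to 806 CPM. In Anti-miR-21 against Veh 9 fell, against 30.5% of all genes, and 1, Timp3, rose with 0.96 (adjusted p = 1.35e-07). In ACEi against Veh 8 fell, against 19.1% of all genes, and Timp3 again rose, with 0.999 (adjusted p = 1.17e-05). Between the treatments, Pxdn at −0.56 (adjusted p = 0.0263) and Mmp9, a gelatinase, at −0.94 (adjusted p = 0.0406) were lower in Anti-miR-21 than in ACEi, and none of the receptors and other basement membrane genes was called by edgeR.

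**Figure D5:**
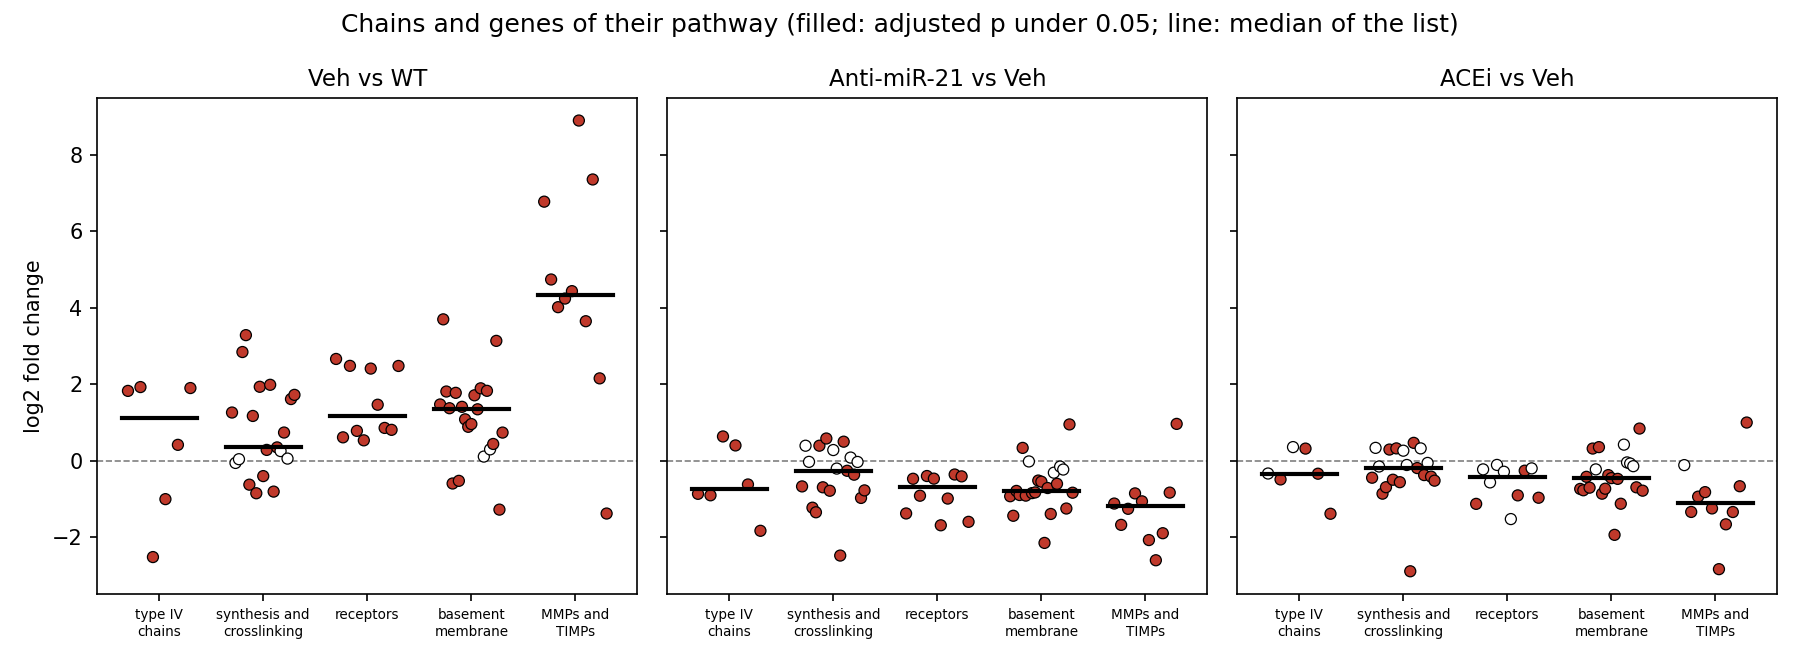
Log2 fold changes (vertical axis) by edgeR of the 6 chains and of the genes of 4 lists in 3 comparisons; each point is a gene, filled where the adjusted p was under 0.05, and lines are list medians. In Veh against WT the chains span −2.52 to 1.93, all 10 receptors lie above 0, and the points of Mmp7 and Mmp10 rest on 2 and 1 counts over the WT mice.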

How the data were processed

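Total RNA of mouse kidneys was sequenced by the authors as paired-end reads, mapped to GRCm38 with the OmicSoft aligner and quantified. The deposited estimated counts (expected counts, one per Ensembl gene, not normalized) were rounded. The deposited FPKM, made by the authors per length and library total, served for levels between chains and as an alternative. The methods name Ensembl R83 as the gene model, whereas the deposited annotation of the FPKM lists mostly UCSC entries, and the difference could not be resolved. The FPKM table holds 3 columns of other libraries, which were not used. Groups came from the labels. Counts were filtered with filterByExpr (minimum 10, total 15), scaled by TMM and fitted with 1 coefficient per group over 20 mice (edgeR 4.0.16, glmQLFit and glmQLFTest, R 4.3.3, adjusted p under 0.05). Log2 CPM used a prior count of 2. Alternatives were DESeq2 1.42.0, limma 3.58.1 on log2(FPKM + 1) and log2(FPKM + 0.1), other scalings and filters, flow cell, the groups compared alone, each mouse left out, and, chosen after seeing the data, only mice with at most 10 CPM of adipocyte markers. The script was tested on simulated data. Intervals are 95%.

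The members and gene lists were chosen with earlier results of these data known. Genes named are the 6 chains, the 5 genes most alike to each by Pearson's r of residuals (mean of at least 1 log2 CPM; 1 of them is not reported here), and, per list, the called gene with the largest rise and fall plus Pxdn, Serpinh1, Ddr1, Itga1, Lama1, Lama5, Lamb2 and Nid1. Nphs1, Mmp9, Mmp10, C430014B12Rik and Gm15419 were named after their values were seen.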

Additional observations from a re-analysis of the deposited data

Results flagged for a closer look

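The only value to stand apart within its group was Col4a5 in Anti-miR-21 mouse A2, at 37.3 CPM, where the next highest of the 6 mice had 33.0 CPM. The gap was 0.653 of the range of the group. In all, 51 sets of CPM, FPKM or ratios of the chains in WT, Veh and Anti-miR-21 mice were examined, and chance alone flags about 1 in 20. Without this mouse, all 6 chains stayed called in Anti-miR-21 against Veh.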

How the results depend on the processing

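No paired analysis was possible because each mouse has a name of its own that no other group shares. The numbers of chains called in Veh against WT, in Anti-miR-21 against Veh and in either treatment against WT stayed within 1.5 times of the values above under every alternative run, at 4 to 6, 5 to 6, 4 to 5 and 4 to 5. In ACEi against Veh, 0 chains were called within flow cell FCH5Y3GBBXX, 0 in mice with at most 10 CPM of adipocyte markers, and 2 to 5 when each mouse was left out in turn, where 4 were called with all mice. Of all genes, 1539 of 16993 were called within that flow cell and 4326 of 17168 in the mice with little adipocyte marker. Between Anti-miR-21 and ACEi, DESeq2 called 1 chain in place of 0. The causes were not tested.

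Among fold changes, signs turned only for differences that did not pass the test with all mice. Col4a4 between Anti-miR-21 and ACEi had −0.073 on log2(FPKM + 1), −0.077 on log2(FPKM + 0.1) and −0.0067 on FPKM divided by the TMM factors, where edgeR gave 0.08. Col4a5 in Anti-miR-21 against WT had 0.043 with library totals alone, 0.041 on log2(FPKM + 1) and 0.049 on log2(FPKM + 0.1), where edgeR gave −0.20, and it was called without WT mouse A18, at −0.27. Col4a6 in Anti-miR-21 against WT ranged from −0.10 to 0.44 when each mouse was left out and was −0.016 in mice with little adipocyte marker. Col4a6 in ACEi against WT was called without WT mouse A17, at 0.88. From FPKM, the log2 ratio of Col4a4 to Col4a3 differed by 1.21, −0.11, 0.17, 1.10 and 1.37 in Veh against WT, Anti-miR-21 against Veh, ACEi against Veh, Anti-miR-21 against WT and ACEi against WT, where counts gave 1.53, −0.24, −0.05, 1.29 and 1.48. Depth limits Col4a6 most, at 25 to 522 counts per mouse. The flow cells hold 1 ACEi mouse and 2 ACEi mice, so no comparison with ACEi could be made within the first.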
